A study of Crinum x powellii with 21 samples.

Results

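Gene expression in leaves was compared with that in root of Crinum x powellii 'Album', a bulbous ornamental of the Amaryllidaceae. The comparison comprised every library with the label leaves (replicates 1, 2 and 3) or root (replicates 1 and 3), which is 5 of the 21 libraries of polyadenylated RNA in the series. Leaves and roots came from purchased bulbs that had been stored in the cold and then returned to room temperature, without treatment, and all plants carried the Album genotype. Their RNA was isolated with a CTAB buffer, as was that of bulb (n = 3) and of the basal plate, the compressed stem below the bulb scales (n = 2). Callus, the undifferentiated tissue that grew from explants of paired bulb scales, was used to place the genes that differed between leaves and root. It had been cultured on a medium with sucrose, yeast extract and the cytokinins BAP and kinetin, with 2 or 4 mg/L of the auxin 2,4-D, under 14 h of light and 10 h of darkness or under 24 h of darkness. The callus groups were light with 2 mg/L (n = 3), darkness with 2 mg/L (n = 2), light with 4 mg/L (n = 3) and darkness with 4 mg/L (n = 3). A column kit served for callus RNA, so that a callus level and an isolation method cannot be told apart when callus is set beside an organ. The titles of the 2 mg/L cultures carry the digit 3, and the dose given here is that of the treatment label. The labels do not say whether the libraries of an organ came from separate plants, and p-values therefore measure the spread between these libraries, which may be technical.

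Leaves are the green organ in which light is captured and carbon is fixed, and their transcriptomes are usually rich in messages for the plastid. Roots anchor the plant, take up water and minerals, grow from a tip meristem and hold no photosynthetic plastids. Bulb scales are swollen leaf bases that store reserves, whereas callus keeps dividing under auxin and may turn green in light. The features measured here are genes of an assembled transcriptome, named by the scheme of the Trinity assembler, and the deposited tables do not pair them with gene names, functions or sequences. The organ labels could therefore not be set against marker genes, and each feature is described by its levels alone.

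The estimated counts added up to 31524940, 38311065 and 67502918 in leaves 1, 2 and 3, and to 37825328 and 37894974 in root 1 and 3. The Pearson correlation of log2(CPM + 1) across features, which are not independent replicates, was 0.985 to 0.991 between leaf libraries, 0.981 between both root libraries and 0.906 to 0.914 between a leaf and a root library. Counts of replicate libraries differed by more than sampling noise (chi-square per feature 10.6 to 23.5 in leaves and 48.0 in root), and each library was counted as a separate sample. A level of 1 CPM, a count scaled by the library's total, was reached by 36988, 39096 and 38337 features in leaves 1, 2 and 3, against 32686 and 30512 in root 1 and 3. The leaf values lay above the root values without overlap, but 3 against 2 libraries allow no p under 0.1 in a two-sided exact permutation test, which is the value obtained (adjusted p = 0.15 over 3 tests). The 100 most abundant features of a library took 14.5% ± 1.02 of the counts in leaves (SD, n = 3) and 10.6% ± 0.149 in root (SD, n = 2). The gap of 3.93 percentage points exceeded the spread between libraries of either organ, again at the smallest p that the exact permutation test allows (0.1, adjusted p = 0.15). The most abundant features that jointly took 50% of the counts numbered 2088 ± 98.1 in leaves (SD, n = 3) and 2254 ± 42.4 in root (SD, n = 2), a difference with an exact permutation p of 0.2.

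Leaves and root differed in 35849 of the 100919 features that passed the filter on low counts, 16745 of them higher and 19104 lower in leaves. These calls rest on edgeR's quasi-likelihood test with a Benjamini-Hochberg adjusted p under 0.05, in a fit of all 10 organ libraries, and they make up 35.5% of the features tested, 16.6% higher and 18.9% lower. Most changes were large: the median log2 fold change was 3.20 among the features called higher and -2.18 among those called lower. Among the called features, 13163 were higher and 10400 lower by 4-fold or more. In bulk tissue, fewer cells of a type and less RNA per cell cannot be told apart. At 16-fold these counts were 5844 and 4287, and at 64-fold they were 3307 and 2093. Of the changes of at least 16-fold, 4829 higher and 1858 lower features had a mean under 1 TPM. Between 10 and 100 TPM there were 155 and 641. The leaf and root libraries did not overlap for 16735 of the features called higher and 17254 of those called lower, but with 3 against 2 libraries 68% of all tested features were free of overlap.

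The balance between both directions depended on the scaling of the libraries and is not a stable property of the comparison. Under TMM scaling, used throughout, 46.7% of the calls were higher in leaves, and the median feature tested had a log2 fold change of 0.33. Under library totals 67.6% were higher (26542 higher, 12720 lower), with a median of 0.86. With TMM factors taken from features of at least 10 TPM, an alternative added after seeing the data, the share was 71.5% (28623 and 11431) and the median 0.99. Without root replicate 3 the fit called 21002 features, 7422 higher and 13580 lower, and without leaves replicate 3 it called 10400 features higher. With the leaf and root libraries alone, 39403 of 85560 features were called, 21439 higher and 17964 lower.

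What held under each of these scalings was a relation with the level of expression, here the mean TPM of leaves and root, a unit corrected for transcript length. Among the 55386 tested features under 1 TPM, 10717 were higher and 3930 lower in leaves. Between 1 and 10 TPM the counts were 4497 higher and 7486 lower, of 29183 features. Between 10 and 100 TPM, 1384 were higher and 6911 lower of 14788, and above 100 TPM 147 were higher and 777 lower of 1562. Rises in leaves were thus mostly of weak features, and falls made up a growing share toward abundant ones. Of the 100919 tested features 55386 were themselves under 1 TPM, and a weak feature could pass the filter through the higher organ alone. The relation with level was not recomputed under other filters. Under library totals the same 4 classes, from weak to abundant, gave 15962, 7211, 3039 and 330 features higher in leaves, with 2725, 5129, 4325 and 541 lower. The median log2 fold change per class fell with level under every scaling tried, and lay at 1.10, -0.17, -0.68 and -0.73 under TMM, and at 1.61, 0.36, -0.15 and -0.18 under library totals. The sizes of the called changes were nearly mirror images within a class, with medians of 1.45 higher and -1.46 lower on the log2 scale between 10 and 100 TPM.

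**Figure D1:**
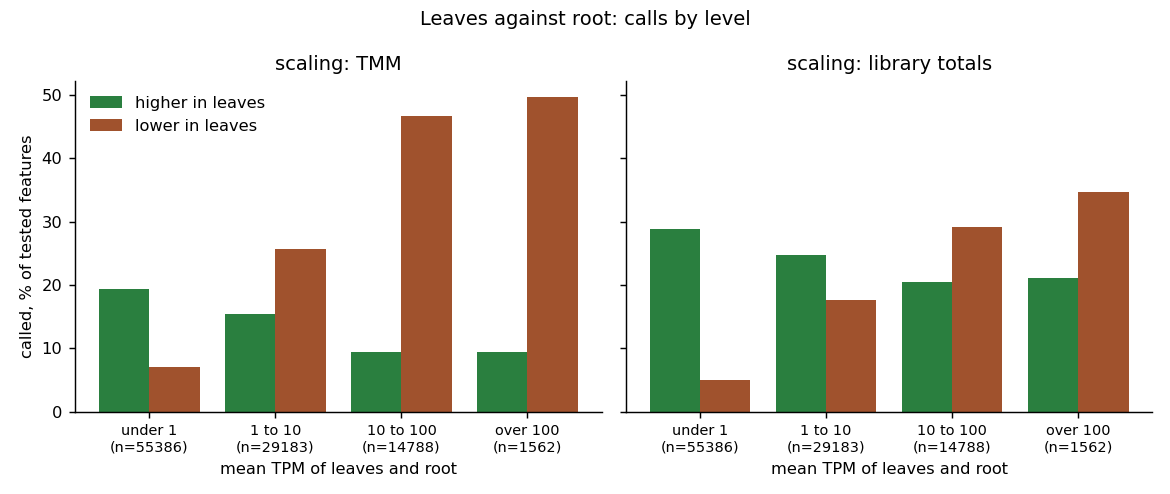
Percentage of tested features called higher (green) or lower (brown) in leaves than in root, in 4 classes of mean TPM, with n the number of tested features, under TMM scaling (left) and library totals (right). Under TMM 19.3% were higher and 7.10% lower under 1 TPM, against 9.41% higher and 49.7% lower above 100 TPM; the fall in the share called lower toward weak features is seen under both scalings.

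Features called higher in leaves held 19.7%, 18.8% and 22.5% of the counts in leaves 1, 2 and 3, against 4.59% and 5.12% in root 1 and 3. Those called lower held 26.2%, 24.8% and 24.8% in the leaf libraries and 58.8% and 54.0% in the root libraries. The features called higher held 7.77% to 8.47% of the counts in bulb, whose libraries entered the fit. In callus, which took no part in it, they held 6.44% to 10.4%. The features called lower held 43.9% to 45.9% in bulb. They held 48.3% to 51.1% in light-grown callus and 39.1% to 40.8% in dark-grown callus at 2 mg/L, and 51.5% to 55.9% in light and 42.4% to 44.3% in darkness at 4 mg/L. Light-grown callus thus lay closer to root in this share than dark-grown callus did, without overlap between their libraries at either dose.

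The share with a single assembled isoform and the median transcript length differed little between called and other features once level was matched. The share called lower in leaves did differ between classes of length. Over all levels, 42.8% of the features called higher and 30.9% of those called lower had a single isoform, against 39.7% of all tested features. Between 10 and 100 TPM these shares were 23.6% and 21.5%, with 22.6% among features that were not called. The median effective length there, relative to the median feature of a library and derived from the ratio of counts to TPM, was 1.25 among features called higher, 1.16 among those called lower and 1.21 among the rest. In 3 length classes of equal size among features of at least 10 TPM, 43.3% of the short, 56.0% of the middle and 41.8% of the long features were called lower in leaves, and 9.63%, 8.44% and 10.0% were called higher.

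The strongest changes were taken among called features that reached 10 CPM in each library of the higher organ and did not overlap with the other organ. This left 1770 features higher and 6472 lower in leaves, of which 80 and 358 changed at least 64-fold. In 7 of the higher ones root had 0 counts in both libraries, and in 42 of the lower ones leaves had 0 counts in all 3. A pair in each direction is named by rule, one by the largest fitted fold change and the other by the largest difference in CPM.

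Crpow_TRINITY_DN35050_c3_g1 had the largest fitted rise in leaves. Its level was 284.6, 56.2 and 291.8 CPM in leaves 1, 2 and 3, whereas root 1 and 3 had 0 counts. For a bound, root was set at 3 counts over both of its libraries, on scaled library sizes. The level from the summed counts of the leaf libraries was then at least 3918.7-fold higher (adjusted p = 3.24e-07, edgeR). This bound covers counting error in root only, and leaves 3 gave 19694 of the 30819 leaf counts. All leaf libraries were high, although leaves 2 lay well under the others. Bulb had 0, 0 and 0.0479 CPM and the basal plate 0.0231 and 0.0356 CPM, near 0 like root. Callus stood between the organs, with 3.96 to 10.1 CPM in light and 12.5 and 19.5 CPM in darkness at 2 mg/L, and 2.27 to 4.85 CPM in light and 5.96 to 9.15 CPM in darkness at 4 mg/L. It was lower in light than in darkness at 4 mg/L, by a log2 fold change of -1.14 (SE 0.30, adjusted p = 0.0105, edgeR).

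Crpow_TRINITY_DN1738_c0_g1 had the largest gain in CPM in leaves. It reached 11899.1, 15307 and 29411.8 CPM in leaves 1, 2 and 3, against 5800.5 and 6537.5 CPM in root 1 and 3. The means were 18872.6 ± 9284.9 CPM in leaves (SD, n = 3) and 6169 ± 521.1 CPM in root (SD, n = 2), and the log2 fold change was 1.07 (SE 0.36, adjusted p = 0.0288, edgeR). The groups did not overlap, but the call was lost without leaves replicate 3, where the log2 fold change was 0.59, as well as without root replicate 1 (1.04) or root replicate 3 (1.26), and with salmon counts (0.97, adjusted p = 0.0666). The feature was abundant everywhere, with 4446.3 to 7603.1 CPM in bulb and 4649.4 to 11651.8 CPM in callus.

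Crpow_TRINITY_DN1694_c0_g1 had the largest fitted fall. Leaves 1, 2 and 3 had 0 counts, whereas root 1 and 3 had 401.3 and 574.0 CPM. With leaves set at 3 counts over all 3 libraries, the level there was at least 32270.4-fold lower (adjusted p = 6.52e-09, edgeR). This bound was taken against the summed counts of both root libraries and covers counting error in leaves only. All bulb and basal plate libraries also had 0 counts, so that among the 4 organs it had counts in root alone. In callus it was found at 3.25 to 4.54 CPM in light and 0.362 to 2.15 CPM in darkness at 4 mg/L, and at 0 to 0.114 CPM in light and 0 to 0.348 CPM in darkness at 2 mg/L. At 4 mg/L it was higher in light by a log2 fold change of 1.80 (SE 0.49, adjusted p = 0.012, edgeR).

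Crpow_TRINITY_DN5347_c0_g1 had the largest loss in CPM. It was measured at 208.4, 123.2 and 120.7 CPM in leaves 1, 2 and 3, against 1233.1 and 2810.4 CPM in root 1 and 3. The log2 fold change was -4.30 (SE 0.37, adjusted p = 4.79e-07, edgeR), and both root libraries lay far above all leaf libraries while differing from each other by more than the leaf libraries did. Bulb had 401.3 to 519.3 CPM and the basal plate 297.3 and 415.8 CPM, between root and leaves. Callus grown in light at 2 mg/L had 870.3 CPM in replicate A, under both root libraries. Replicates B and C had 1574.4 and 2343.7 CPM, between the root libraries. In darkness at 2 mg/L callus had 89.6 and 413.3 CPM (log2 fold change of light against darkness 3.09, SE 0.42, adjusted p = 1.85e-06, edgeR). At 4 mg/L it had 281.3 to 304.6 CPM in light and 175.1 to 187.7 CPM in darkness (log2 fold change 0.68, adjusted p = 0.209, edgeR).

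**Figure D2:**
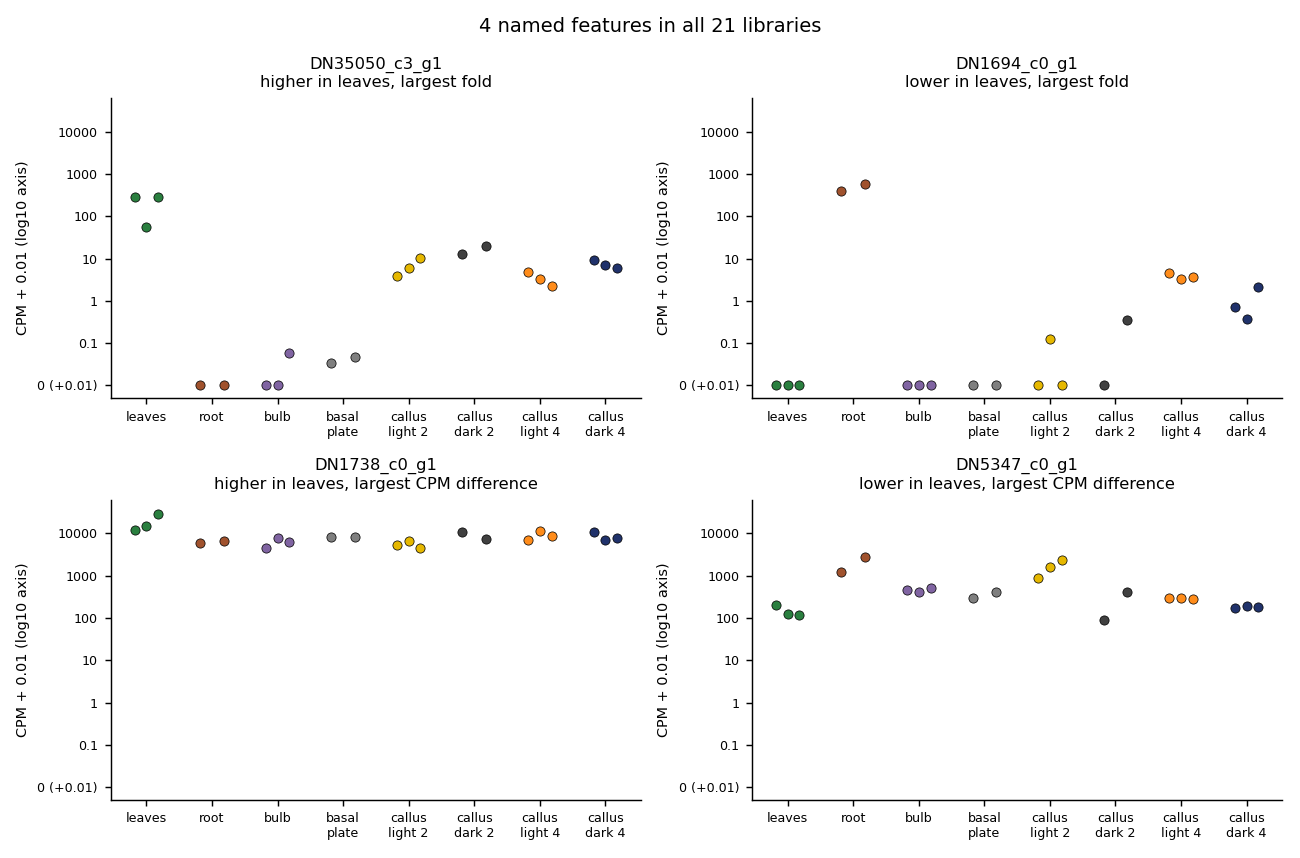
CPM of the 4 named features in each of the 21 libraries (points, 1 per library) on a log10 axis after adding 0.01, so that libraries with 0 counts lie on the lowest tick; callus groups are labelled by light regime and mg/L of 2,4-D. The upper row holds the features with 0 counts in root (left) or in leaves (right), and the lower row those with the largest gain or loss in CPM.

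The 100 largest rises and the 100 largest falls among the strongest changes were followed into the other tissues. These lists were drawn from the leaf and root libraries after the data had been seen, and their leaf and root levels are a description. Absolute log2 fold changes ran from 5.53 to 15.80 among the rises and from 10.28 to 17.54 among the falls. The median member of the rises had 77.5, 35.3 and 70.6 CPM in leaves 1, 2 and 3, and 0.159 and 0.264 CPM in root 1 and 3. The median member of the falls had 0 CPM in each leaf library, against 56.0 and 37.6 CPM in root 1 and 3.

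The leaf list was higher in callus grown in light than in darkness, and more so at 2 mg/L. The median member of the rises had 8.68 to 16.9 CPM in light and 0.429 and 0.523 CPM in darkness at 2 mg/L. At 4 mg/L it had 0.996 to 1.34 CPM in light and 0.184 to 0.342 CPM in darkness. At least 1 CPM was reached by 80 to 83 of the 100 features in the libraries from light and by 38 and 39 in those from darkness at 2 mg/L, against 50 to 55 in light and 31 to 34 in darkness at 4 mg/L. The light libraries lay above the dark ones without overlap at both doses. In bulb the median member had 3.34 to 3.55 CPM, with 69 to 74 features at 1 CPM or more. The basal plate libraries stood apart from each other, with 1.31 CPM in replicate 1 and 0.321 CPM in replicate 2.

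The root list followed the same light regime, and not the opposite one. The median member of the falls had 9.69 to 13.2 CPM in light-grown callus and 1.01 and 1.49 CPM in dark-grown callus at 2 mg/L, and 14.6 to 17.0 CPM in light and 2.57 to 3.73 CPM in darkness at 4 mg/L. At least 1 CPM was reached by 71 to 77 of the 100 features in light and by 50 and 53 in darkness at 2 mg/L, and by 82 to 85 in light and 58 to 63 in darkness at 4 mg/L. Bulb was low in this list, with medians of 0.415 to 0.694 CPM, whereas the basal plate had 5.70 CPM in replicate 1 and 0.997 CPM in replicate 2.

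**Figure D3:**
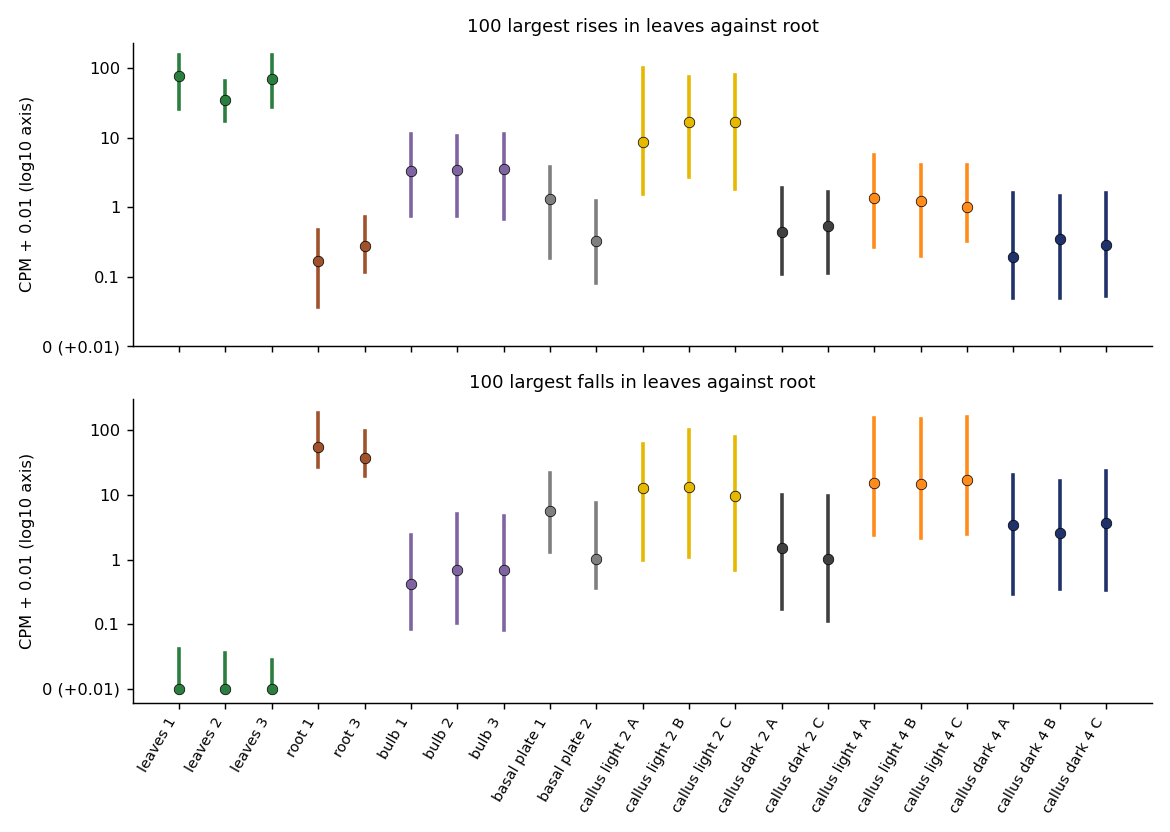
CPM of the 100 features with the largest rises (upper) and the 100 with the largest falls (lower) in leaves against root, per library, on a log10 axis after adding 0.01; points are medians over the 100 features and bars run from the lower to the upper quartile. Median members of both lists were higher in light-grown than in dark-grown callus, with 8.68 to 16.9 against 0.429 and 0.523 CPM for the rises at 2 mg/L.

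Light against darkness was tested within callus, in libraries that took no part in the comparison of leaves with root. At 2 mg/L, 25.6% of the 121349 features tested in callus were called, 13.4% higher and 12.1% lower in light. Of the 100 largest rises 94 were tested, and 72 were higher and 3 lower in light, with a median log2 fold change of 5.31. Of the 100 largest falls 96 were tested, and 73 were higher and 7 lower in light, with a median of 3.06, where the median of all tested features was -0.06. At 4 mg/L, 12.6% of all tested features were called, 7.32% higher and 5.28% lower in light. Here 45 of the rises were higher and 9 lower in light (median 1.17), and 76 of the falls were higher and 2 lower (median 2.50), with a median of 0.06 over all features. The difference in the light effect between 4 and 2 mg/L was tested as an interaction, which called 11.5% of all features, 5.56% in favour of 4 mg/L and 5.96% in favour of 2 mg/L. Among the rises the light effect was higher at 4 mg/L for 2 features and lower there for 50. Among the falls it was higher at 4 mg/L for 15 and lower for 24. In lists of 50 or 200 features, 79.6% and 64.4% of the rises and 69.4% and 73.0% of the falls were higher in light at 2 mg/L. At 4 mg/L these shares were 55.1% and 37.7% of the rises and 79.6% and 77.0% of the falls.

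Both lists hold features of 10 CPM or more in an organ, and the broader sets drawn by that rule were also called more often than all tested features. Of all 1770 features higher in leaves that met this rule, 1756 were tested in callus, and 32.2% were higher and 22.4% lower in light at 2 mg/L. At 4 mg/L these shares were 8.71% and 32.4%, so that the larger part was then lower in light. Among the 6472 features lower in leaves, 6463 were tested, and 43.4% were higher and 7.78% lower in light at 2 mg/L, with 24.1% and 4.92% at 4 mg/L. The prevalence of higher levels in light was thus found in the strongest rises at both doses, and in the broader set of rises at 2 mg/L only.

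Over the complete sets, features called higher in leaves lay near the background at 2 mg/L and were more often lower than higher in light at 4 mg/L. Of 14667 tested in callus, 1809 (12.3%) were higher and 1821 (12.4%) lower in light at 2 mg/L, against 13.4% and 12.1% of all features. At 4 mg/L 480 (3.27%) were higher and 1219 (8.31%) lower, against 7.32% and 5.28% of all features. Features called lower in leaves were higher in light more often than all features: of 17374 tested, 5973 (34.4%) were higher and 2090 (12.0%) lower in light at 2 mg/L, and 3949 (22.7%) were higher and 903 (5.20%) lower at 4 mg/L. Under library totals, for both the sets and the light effect, 3892 of 11365 features called lower in leaves were higher and 2154 lower in light at 2 mg/L. Of 23556 features called higher in leaves, 1883 were then higher and 5316 lower, so that the even balance of the rises at 2 mg/L rests on the scaling. The totals of the callus libraries at 2 mg/L were 26403881 to 59071345 in light and 37313712 and 45927818 in darkness. At 4 mg/L they were 49682004 to 58704905 in light and 47354328 to 51608142 in darkness. Whether depth bears on these counts was not tested.

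**Figure D4:**
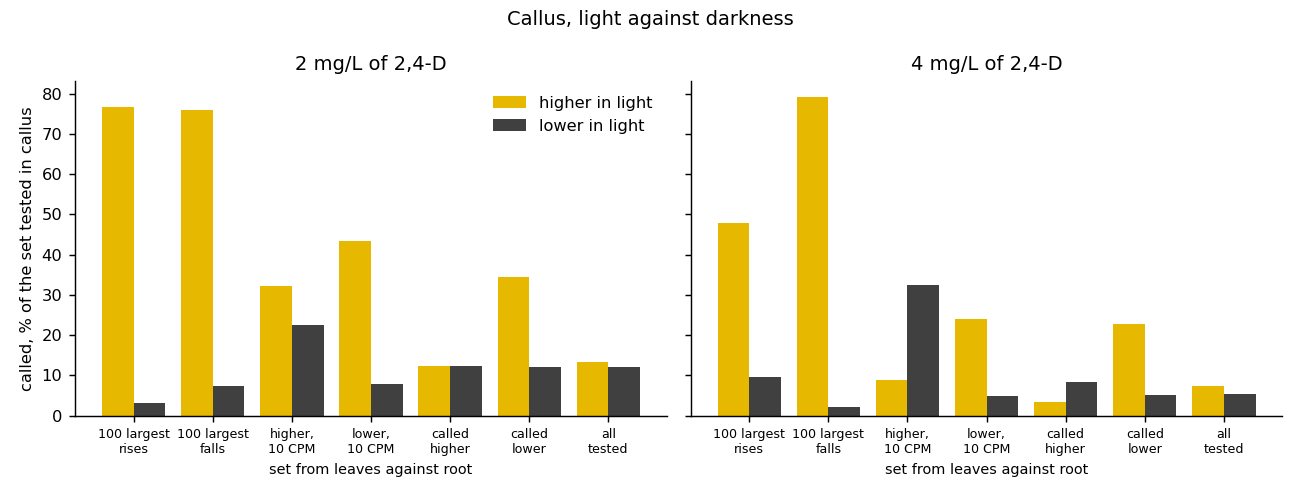
Percentage of features called higher (yellow) or lower (dark grey) in light than in darkness within callus, at 2 mg/L (left) and 4 mg/L (right) of 2,4-D, for 6 sets defined by leaves against root and for all tested features; "10 CPM" marks called features that reached 10 CPM in each library of the higher organ without overlap. Of the 100 largest rises 76.6% were higher in light at 2 mg/L and 47.9% at 4 mg/L, and of the 100 largest falls 76.0% and 79.2%.

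Few features were present in one organ and absent from the other. Presence was set at 1 CPM or more in every library of an organ and absence at 0 counts in every library of the other. Leaves held 33051 features by this measure and root 28484, of which 24033 were present in both. Only 127 features (0.384% of those present in leaves) were present in leaves and absent from root, and 284 (0.997% of those present in root) were present in root and absent from leaves. A count of 0 allows a level of up to 0.0444 to 0.0952 CPM in a leaf library and of up to 0.0792 or 0.0793 CPM in a root library, taking 3 counts as the limit, which covers counting error only. Root had 2 libraries and leaves 3, and fewer libraries make both presence and absence easier to meet. With each library thinned to 31524833 counts, the lowest total, the numbers were 151 and 310. Without root replicate 1 they were 584 in leaves and 403 in root, which turns their order. Without root replicate 3 they were 265 and 444, and without leaves replicate 2 they were 207 and 329.

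Most of these features were weak. The median level was 2.46 CPM in leaves (range 1.19 to 210.9 CPM) for the 127 leaf features and 4.10 CPM in root (range 1.02 to 487.6 CPM) for the 284 root features. A level of 10 CPM throughout the libraries of the organ was reached by 7 leaf features and 42 root features. The leaf features took 0.0457% to 0.0988% of the counts of the leaf libraries, and the root features 0.599% and 0.339% of those of root 1 and 3.

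Root features were present in light-grown callus in a larger share than all tested features, and in dark-grown callus in a smaller one. These differences were not tested, and all tested features are not a matched background. The root features were chosen for at least 1 CPM in both root libraries, which 28.2% of all tested features reached. At least 1 CPM in every library of a group was reached by 101 of the 284 root features in light and 56 in darkness at 2 mg/L, and by 138 in light and 82 in darkness at 4 mg/L. As shares these are 35.6%, 19.7%, 48.6% and 28.9%, in the same order, against 30.4%, 34.5%, 31.9% and 31.6% of all tested features. They held 0.348% to 0.432% of the counts in light and 0.145% to 0.198% in darkness at 2 mg/L, and 0.573% to 0.732% in light against 0.210% to 0.242% in darkness at 4 mg/L. Callus in light thus lay within the range of the root libraries at 2 mg/L, and within or above it at 4 mg/L. Bulb had 0.0303% to 0.0439% and the basal plate 0.118% and 0.143%. The largest single feature made up 14.9% to 34.4% of the set's counts in any callus library, so that no feature alone carried these shares. A part of them came from 42 root features with 10 CPM or more in each root library. At 2 mg/L these held 0.0963% to 0.143% of the counts in light and 0.0674% to 0.0815% in darkness. At 4 mg/L they held 0.285% to 0.385% in light and 0.0902% to 0.112% in darkness. They met the rule from which the largest falls were drawn, so that both results may share features. The overlap was not counted.

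Of the 127 leaf features, 26 reached 1 CPM in all libraries of callus in light and 18 in darkness at 2 mg/L, and 8 in light and 11 in darkness at 4 mg/L. These shares, from 6.30% to 20.5%, all lay under those of all tested features. That background is again not matched, as 32.75% of all tested features reached 1 CPM in every leaf library. The leaf features held 0.0494% to 0.0644% of the counts in light at 2 mg/L, close to the leaf libraries, and 0.00836% and 0.00930% in darkness. At 4 mg/L the shares were 0.00456% to 0.00685% in light and 0.00739% to 0.00954% in darkness, so that light-grown callus lay lower there. Bulb held 14 of the 127 features and 46 of the 284. Absence from every other library of the series was found for 0 of the leaf features and 2 of the root features, but a single count in any library was enough to miss it. By the rule for presence, 39 of the 127 leaf features and 150 of the 284 root features were present in a callus group. In bulb or basal plate 17 and 78 were present.

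**Figure D5:**
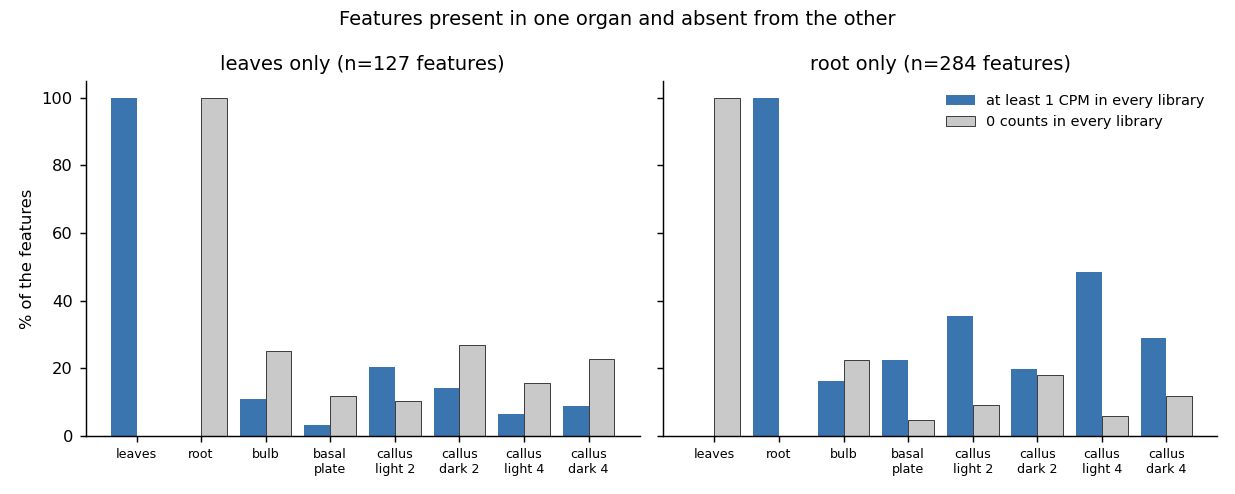
Percentage of the 127 features present in leaves and absent from root (left) and of the 284 features present in root and absent from leaves (right) that had at least 1 CPM in every library (blue) or 0 counts in every library (grey) of each group; the values of leaves and root follow from the definition. The highest share outside the defining organ was 48.6%, for root features in light-grown callus with 4 mg/L of 2,4-D.

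The position of bulb and callus between leaves and root was measured for all called features, on mean log2 CPM scaled over the 21 libraries. Bulb lay nearer to root for 77.0% of the features called higher in leaves and for 71.3% of those called lower. The same held for 74.9% of all tested features with a higher mean in leaves and for 61.0% of those with a lower mean, so that the value for rises was close to the background. For the falls the side of bulb depended on the scale, with 56.0% nearer to root under library totals and 49.8% on log2(TPM + 1), whereas for the rises these values were 88.0% and 92.8%. Among features changed at least 16-fold, bulb lay nearer to root for 82.6% of the rises and 56.3% of the falls. For the 100 largest rises and the 100 largest falls the shares were 49% and 38%, so that the root side did not prevail there. By library, all 3 bulb values were at or under the higher root value for 4639 of the 16735 rises without overlap, and at or above the lowest leaf value for 343. For the 17254 falls without overlap, all 3 bulb values were at or above the lower root value for 4097 and at or under the highest leaf value for 3011.

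Callus took no single side. Of the features called higher in leaves, 36.8% lay nearer to root in callus in light and 34.7% in darkness at 2 mg/L, with 45.9% in light and 39.0% in darkness at 4 mg/L, and the background ran from 39.8% to 48.4%. Of the features called lower, 52.1% lay nearer to root in light and 36.5% in darkness at 2 mg/L, and 55.3% in light and 43.5% in darkness at 4 mg/L, against 40.2% to 48.7% of all tested features with a lower mean in leaves. In callus these positions rest on the scaling as well: on log2(TPM + 1) the 36.8% became 57.1%. In callus 25.9% to 29.9% of the rises and 33.0% to 38.2% of the falls lay outside the span from leaves to root. Among all tested features these shares were 48.6% to 52.0% with a higher mean in leaves and 55.3% to 57.6% with a lower mean. Called features were chosen for a gap between leaves and root, which by itself lowers the share outside it. Of the 100 largest rises, 30% lay nearer to root in light and 82% in darkness at 2 mg/L, with 70% and 81% at 4 mg/L. Of the 100 largest falls these shares were 72% and 41% at 2 mg/L, and 78% and 55% at 4 mg/L.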

How the data were processed

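The members of the comparison, the gene lists and the tests were chosen with earlier results of these data known. RNA-seq reads were quantified by the authors on an assembled transcriptome; fastp 0.23.4, kallisto 0.46.1 and Salmon 1.4.0 are named in the submitters' processing notes, without their roles. The authors deposited, for isoforms and for genes, tables of estimated counts and of TPM. Their gene tables named as counts equal rescaled TPM (100% of values within 1% plus 0.02) and were not used as counts. The deposited estimated counts per isoform, from the quantifier other than salmon, were summed per gene (676992 genes) and rounded. Deposited TPM served as a level per length, and the ratio of counts to TPM as relative length.

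Tests used edgeR 4.0.16 in R 4.3.3 (TMM, filterByExpr, quasi-likelihood, FDR under 0.05): the 10 organ libraries for leaves against root, the 11 callus libraries for light against darkness. Standard errors were derived from the F statistic. Other values used CPM by library total; positions used log2 CPM (prior count 2). The named features were taken among called features without overlap that reached 10 CPM in each library of the higher organ, by the largest fitted fold change and the largest difference in CPM in each direction. Procedures were tested on simulated data. Alternatives were other scalings and filters, DESeq2 1.42.0, limma 3.58.1 applied to TPM after adding 1 or 0.1 and taking log2, salmon counts, other libraries in the fit, a replicate block and single libraries left out.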

Additional observations from a re-analysis of the deposited data

Results flagged for a closer look

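The effect of light on callus differed between the doses of 2,4-D, by an interaction test (edgeR, FDR under 0.05) that called 11.5% of the 121349 features tested in callus, 5.56% with a higher and 5.96% with a lower light effect at 4 mg/L than at 2 mg/L. Of the 94 tested features among the 100 largest rises in leaves, 50 had a lower and 2 a higher light effect at 4 mg/L. Of the 96 among the 100 largest falls, 24 were lower and 15 higher. In the set called higher in leaves 1200 of 14667 features were lower and 505 higher, and in the set called lower in leaves 2278 of 17374 were lower and 1407 higher. Under library totals both of these balances turned, to 1309 lower and 1574 higher in the set called higher in leaves and to 1311 lower and 1975 higher in the set called lower, whereas the 100 largest rises had 44 lower and 3 higher and the 100 largest falls 19 lower and 16 higher. For Crpow_TRINITY_DN1694_c0_g1 the light effect was higher at 4 mg/L by 4.41 on the log2 scale (SE 1.27, adjusted p = 0.021, edgeR), although at 2 mg/L it had 0.348 CPM or less in every library. For Crpow_TRINITY_DN5347_c0_g1 the difference was -2.40 (SE 0.51, adjusted p = 0.00186, edgeR).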

How the results depend on the processing

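In 590 recomputed values for 43 results, 538 kept their direction and their side of the threshold, or stayed within 1.5 times for counts. No fold change of a named feature changed sign, but balances between counts of higher and lower features did. The count of features called higher and lower in leaves was 26542 and 12720 under library totals, 30929 and 10607 by limma with 1 added to TPM, 30733 and 10834 by limma with 0.1 added, and 28623 and 11431 with TMM on features of at least 10 TPM. Without a filter on low counts 20553 features were called, 7456 of them higher. With single organ libraries left out, on the same features, 21002 to 41035 were called, 7422 to 19700 higher and 13580 to 21391 lower; where 1 root library was left, its spread was taken from the other groups. Whether same-numbered libraries of leaves and root belong together was not settled. Their correlations of deviations from the organ means were -0.048 and 0.012. With 2 root libraries the root deviations are mirror images of each other, so that these values cannot decide it. The fit with a replicate block called 29590 features. The number present in leaves and absent from root, and in root and absent from leaves, was 427 and 481 with presence at 0.5 CPM, 17 and 87 at 5 CPM, 468 and 617 with absence under 0.1 CPM, 207 in leaves with replicates 1 and 3 alone, and 145 to 584 and 329 to 444 with single libraries left out. In light against darkness, the features called lower in leaves that were higher in light at 2 mg/L numbered 3892 under library totals. Those called higher in leaves that were lower in light numbered 5316 at 2 mg/L and 2465 at 4 mg/L under library totals, and 993 to 1682 at 2 mg/L with single libraries left out. Those called lower in leaves that were lower in light at 4 mg/L numbered 1410 with salmon counts and 590 to 906 with single libraries left out. Of the 100 largest rises, those lower in light at 2 mg/L numbered 5 under library totals, 6 with salmon counts and 2 to 7 with single libraries left out. In the interaction, the features with a higher light effect at 4 mg/L among those called higher in leaves numbered 1574 under library totals, against 1309 with a lower one, and 271 to 554 with single libraries left out, and among the 100 largest rises 1 to 5; among the 100 largest falls they numbered 9 with DESeq2. Those with a lower light effect among features called lower in leaves numbered 1311 under library totals, against 1975 with a higher one; both balances are the reverse of those under TMM. On log2(TPM + 1), 9551 features called higher in leaves lay nearer to root in callus in light at 2 mg/L. The causes of these shifts were not tested. Depth limits absence to 3 counts per library.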
